A study of Aspergillus oryzae with 8 samples.

Results

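The genes described here are sC (AO090020000349) and mde1 (AO090009000312) of the filamentous fungus Aspergillus oryzae RIB40, 2 of the 11880 genes listed in the deposited files. sC encodes ATP sulfurylase, and mde1 carries the name of the yeast dehydratase of methionine salvage. They were chosen by measured values: in an earlier analysis of the same libraries both passed the test for lower counts under dithiothreitol (DTT) in both kinds of culture. Their change under DTT is therefore given as a description, with no test. Tests of the 2 genes cover solid against liquid culture, and the difference of the DTT changes, which builds on values that chose them. RNA came from mycelium in 4 conditions with 2 libraries each. The solid DTT group was mycelium on cellophane that had been moved onto filter paper wetted with 20 mL of medium holding 20 mmol/L DTT. The solid control group was untreated mycelium on cellophane over agar, grown for 40 h at 30 °C from spores. In the liquid DTT group, DTT was added to the flasks to 20 mmol/L, and the liquid control group was untreated mycelium shaken at 200 rpm in 30 mL of medium for 40 h at 30 °C. All groups were the same strain in the same Czapek-type medium with 2.0% glucose at pH 5.5, in which magnesium and iron were supplied as sulfates. The labels give no exposure time to DTT, and the move to filter paper is not described for the solid controls, so that step and DTT cannot be told apart in solid culture. Growth time and temperature, and the shaking rate and volume of liquid culture, are recorded for the control groups only. Whether the DTT groups matched them is not stated. No label says that the 2 libraries of a condition are separate cultures, so the spread that p-values are based on may be technical only.

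Fungi take up sulfate and activate it with ATP to adenylyl sulfate, the step that ATP sulfurylase catalyses. The activated sulfate is phosphorylated, reduced to sulfite by the reductase that yeast calls Met16, and reduced further to sulfide, which is joined to an activated homoserine or serine to make homocysteine and cysteine. In yeast the activated homoserine is made by Met2. Methionine salvage recovers the methylthio group left over when S-adenosylmethionine is used for polyamine synthesis, and Mde1 of yeast is the dehydratase of that cycle. In Aspergillus species genes of sulfate assimilation are known to be repressed when reduced sulfur such as methionine is plentiful, and sC is a selectable marker because loss of the enzyme gives resistance to selenate. DTT is itself a thiol and carries sulfur, and it breaks disulfide bonds.

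The libraries held 5880753 to 8912897 reads assigned to genes, of which 8.2% to 37.6% fell on 3 rRNA genes. Levels are CPM, read counts scaled to a common library total with TMM factors, and 3 reads amount to 0.34 to 0.51 CPM before TMM, under every level of sC and mde1. The replicate numbers coincide with the insert size in the labels, 500 bp in replicate 1 and 200 bp in replicate 2. They coincide with the labelled molecule as well, polyA RNA in replicate 1 and total RNA in replicate 2, although the same oligo-dT selection is described for all. bipA (AO090003000257), the Hsp70 chaperone of the endoplasmic reticulum, served as a check of the treatment. It had 8445 and 9309 CPM in solid DTT libraries and 728 and 801 CPM in solid control libraries, 5632 and 8549.9 CPM in liquid DTT libraries and 312 and 483 CPM in liquid control libraries. Pairs of values are replicates 1 and 2 throughout. The only cell state considered besides vegetative mycelium was spore formation. The summed level of 5 spore formation genes was 70.7 to 103 CPM in solid DTT, 81.9 to 111 CPM in solid control, 53.8 to 234 CPM in liquid DTT and 55.4 to 94.6 CPM in liquid control libraries, with none of them at 0. flbD, a developmental regulator, fell by 2.29 ± 0.59 on the log2 scale under DTT in solid culture (adjusted p = 0.0448, edgeR), a call lost without any one of the 4 solid libraries (adjusted p = 0.125 to 0.229). brlA, the central regulator of spore formation, was higher in solid than in liquid culture under DTT by 2.85 ± 0.63 (adjusted p = 0.0486, edgeR), a call lost in 6 of the 8 fits without 1 library (adjusted p = 0.0840 to 0.254). pksP stood at -2.30 ± 0.71 under DTT in liquid culture (adjusted p = 0.0501 in edgeR, 0.0124 with replicate number as a block and 0.0119 in DESeq2). wetA went the other way there, at 2.40 ± 0.81 (adjusted p = 0.0664 in edgeR, 0.0138 with the block and 0.0126 in DESeq2). The part of spore formation in the values of sC and mde1 was not tested. In RNA from whole mycelium, fewer cells of a type and less RNA per cell cannot be told apart.

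sC transcripts were about an order of magnitude less abundant under DTT in both cultures. In solid culture sC had 35.6 and 43.5 CPM in DTT libraries (218 and 484 reads), against 406 and 760.4 CPM in control libraries (2359 and 7216 reads). In liquid culture it had 16.3 and 8.34 CPM in DTT libraries (72 and 79 reads), against 175 and 210.2 CPM in control libraries (982 and 1918 reads). Every DTT library lay under every control library, across cultures too. The choice of sC favours this separation, and the share of all tested genes that separate likewise was not counted. The log2 fold change was -3.88 ± 0.58 in solid culture and -3.98 ± 0.58 in liquid culture (± SE of edgeR's fit). Counted from the lowest change among 9438 tested genes, sC ranked 109th in solid culture and 244th in liquid culture. Within replicate 1 the DTT library of solid culture was 11.4-fold lower than its control, and within replicate 2 it was 17.5-fold lower. The same ratios in liquid culture were 10.8-fold and 25.2-fold. A fall within each insert size follows from the separation above, which the choice of sC favours.

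The fall of mde1 was smaller. In solid culture mde1 had 28.9 and 16.1 CPM in DTT libraries (177 and 179 reads), against 77.6 and 99.1 CPM in control libraries (451 and 940 reads). In liquid culture it had 12.4 and 15.8 CPM in DTT libraries (55 and 150 reads), against 114 and 58.5 CPM in control libraries (641 and 534 reads). Here too the DTT libraries of both cultures lay under all 4 control libraries, which the choice of mde1 also favours. The log2 fold change was -1.98 ± 0.49 in solid culture and -2.61 ± 0.51 in liquid culture. The fold differed between insert sizes: mde1 was 2.68-fold lower in replicate 1 and 6.15-fold lower in replicate 2 of solid culture, and 9.21-fold and 3.69-fold lower in the same order in liquid culture. It ranked 655th from the lowest change among tested genes in solid culture and 715th in liquid culture.

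**Figure D1:**
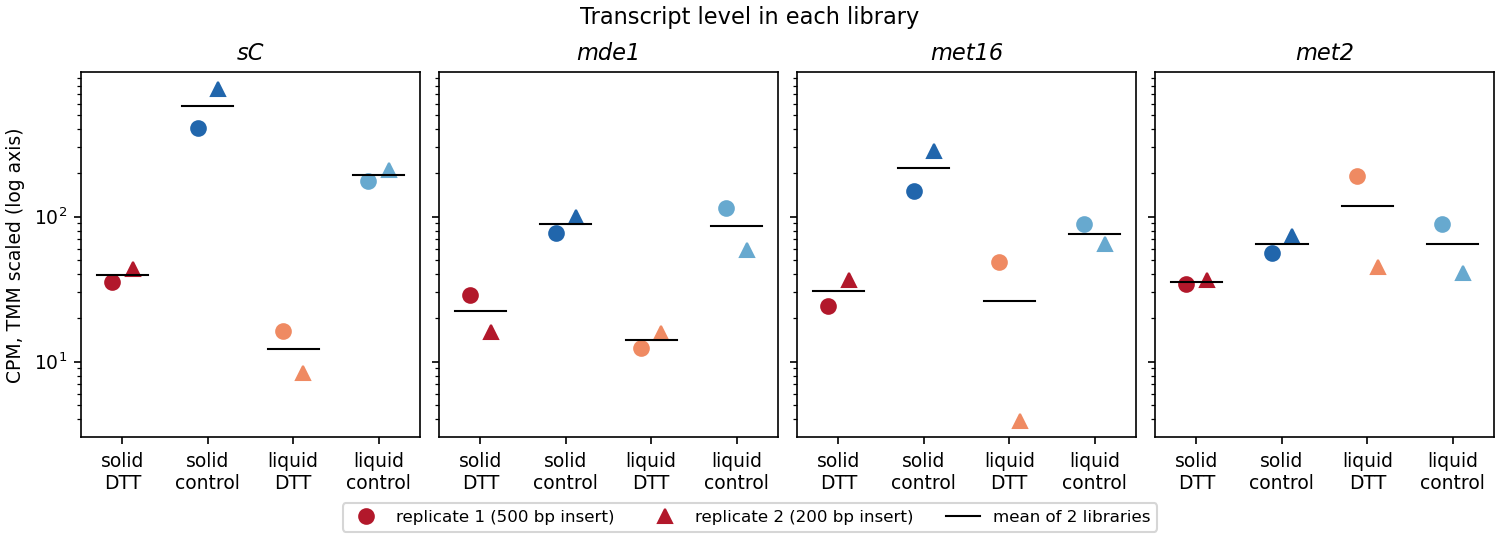
Level in CPM on a log axis of sC, mde1, met16 and met2 in each of the 8 libraries. Circles are replicate 1, triangles replicate 2, and bars the mean of the 2 libraries. For sC and mde1, chosen for lower counts under DTT, all DTT libraries lie under all control libraries. The liquid DTT libraries of met16 stand at 48.8 and 3.91 CPM and those of met2 at 192 and 44.6 CPM.

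The unequal fall of both genes can be read within each library, where scaling plays no part. For each mde1 read there were 1.23 and 2.7 sC reads in solid DTT libraries, against 5.23 and 7.68 in solid control libraries. In liquid culture there were 1.31 and 0.527 sC reads for each mde1 read in DTT libraries, against 1.53 and 3.59 in control libraries. The groups did not overlap in either culture, although the highest liquid DTT value was close to the lowest liquid control value. These ratios come from the comparison that chose the genes and were not tested, and how often other gene pairs separate likewise was not counted.

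The order of mean levels for sC was liquid DTT (12.3 ± 5.6 CPM), solid DTT (39.6 ± 5.6), liquid control (193 ± 24.8) and solid control (583 ± 251; SD, n = 2 each). No 2 neighbours in this order overlapped, but how many other genes separate likewise was not counted. For mde1 it was liquid DTT (14.1 ± 2.42 CPM), solid DTT (22.5 ± 9.05), liquid control (86.5 ± 39.5) and solid control (88.3 ± 15.2; SD, n = 2 each). The DTT groups of mde1 were separated by the gap from 15.8 to 16.1 CPM, and its control groups overlapped. The share of each gene covered by reads is a deposited value. Coverage of sC was 91.2% and 99.8% in solid DTT, 99.9% and 100% in solid control, 79.2% and 90.0% in liquid DTT and 98.7% and 100% in liquid control libraries. Coverage of mde1 was 78.0% in replicate 1 of liquid DTT, its lowest value, and 94.8% to 100% in the other 7 libraries. Within each replicate number both genes were least covered in the liquid DTT library, which also held their fewest reads.

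The comparisons that did not choose the genes set solid against liquid culture. sC stood higher on solid medium both with and without DTT, by similar factors, but neither difference passed the test. Under DTT the log2 fold change of solid over liquid culture was 1.69 ± 0.54, with an unadjusted 95% interval from 0.48 to 2.91 and an adjusted p of 0.107 (edgeR's quasi-likelihood test, Benjamini-Hochberg over 9438 genes). The pairs of libraries gave a ratio of solid to liquid DTT of 2.19 within replicate 1 and 5.22 within replicate 2. Without DTT the log2 fold change was 1.60 ± 0.53 (interval 0.41 to 2.78, adjusted p = 0.139 in edgeR's test), and the ratios were 2.32 and 3.62. The solid and liquid libraries of sC did not overlap in either state. The share of all tested genes that did likewise was not counted, so this is a description only. In DESeq2, sC was called in both, with adjusted p = 0.0356 under DTT and adjusted p = 0.0442 without it, so its call between the cultures depends on the test. Over the other alternatives the adjusted p of edgeR was 0.0620 to 0.361 under DTT and 0.0799 to 0.610 without it. The comparisons with and without DTT use different libraries, but each shares libraries with the DTT comparisons above.

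For mde1 no difference between the cultures was detectable. The log2 fold change of solid over liquid culture was 0.66 ± 0.49 under DTT (unadjusted 95% interval -0.44 to 1.76, adjusted p = 0.441 in edgeR's test). It was 0.03 ± 0.47 without DTT (interval -1.04 to 1.11, adjusted p = 0.983 in edgeR's test). The solid control libraries lay between the liquid control libraries, and the direction of the second value turned under several alternatives. The interval without DTT still includes 2-fold differences in both directions. Of these 2 genes edgeR thus called 0 in each comparison (1 at an unadjusted p under 0.05, and 1 by DESeq2, in each). The background in edgeR was 2.95% of tested genes called under DTT (278 genes, and 992 with replicate number as a block). Without DTT it was 3.89% (367, and 771 with the block). DESeq2 called more genes, 1142 under DTT and 890 without it.

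A test of whether DTT acted differently in the cultures gave no call for either gene. It takes the difference of the DTT changes that chose the genes. The choice therefore bears on it, and equal effects are not read from it. The DTT effect in solid culture minus that in liquid culture was 0.10 ± 0.72 for sC on the log2 scale (unadjusted 95% interval -1.54 to 1.73, adjusted p = 0.990 in edgeR's test). For mde1 it was 0.63 ± 0.68 (interval -0.90 to 2.16, adjusted p = 0.817 in edgeR's test). The intervals include differences of more than 2-fold either way for sC. No gene of 9438 was called for this difference by edgeR (0.00%), while 1003 had an unadjusted p under 0.05, DESeq2 called 211 and the fit with the block 23. Neither sC nor mde1 was among those of DESeq2.

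**Figure D2:**
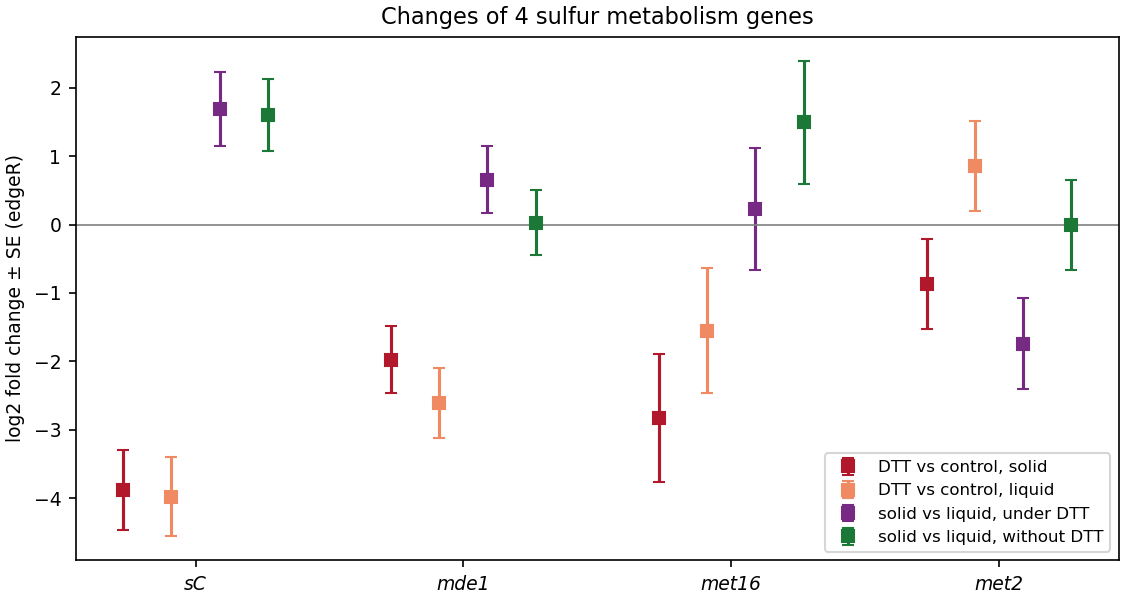
Log2 fold change ± SE of sC, mde1, met16 and met2 for DTT against control in each culture and for solid against liquid culture with and without DTT. sC lies near -4 under DTT in both cultures and above 1.5 for solid against liquid culture, while mde1 without DTT lies at 0.03.

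Besides sC and mde1, the reference names 2 genes of a list of 70 symbols of sulfur uptake, cysteine and methionine synthesis and salvage, met16 (AO090020000347) and met2 (AO090701000235). met16 is named after the yeast reductase that makes sulfite from activated sulfate. It had 24.2 and 36.8 CPM in solid DTT libraries and 150.5 and 282 CPM in solid control libraries. In liquid culture it had 48.8 and 3.91 CPM in DTT libraries and 88.5 and 64.3 CPM in control libraries. All DTT values lay under the control values of their culture, but how many other genes separate likewise was not counted. The liquid DTT libraries differed from each other by a larger factor than either culture's controls did. The log2 fold change was -2.83 ± 0.94 in solid culture (adjusted p = 0.0922) and -1.55 ± 0.91 in liquid culture (adjusted p = 0.251), neither called by edgeR. DESeq2 called met16 in solid culture (adjusted p = 0.0135). Without liquid DTT replicate 1, edgeR's value in liquid culture was -4.28, with an adjusted p of 0.0173, and without liquid DTT replicate 2 it was -0.60, with an adjusted p of 0.483. Without liquid DTT replicate 1 or 2, its adjusted p in solid culture was 0.0144 or 0.0160.

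met2 is named after the yeast homoserine acetyltransferase. It had 34.1 and 36.5 CPM in solid DTT libraries, 55.9 and 73.2 CPM in solid control libraries, 192 and 44.6 CPM in liquid DTT libraries and 89.2 and 40.9 CPM in liquid control libraries. Its liquid groups overlapped. Its log2 fold change was -0.87 ± 0.66 in solid culture (adjusted p = 0.424) and 0.86 ± 0.66 in liquid culture (adjusted p = 0.383), called in neither by edgeR. The liquid value turned to -0.54 without liquid DTT replicate 1.

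In the whole list edgeR called 2 of 4 genes, sC and mde1, lower under DTT in each culture, and 0 higher. The median log2 fold change of the 4 was -2.40 in solid culture and -2.08 in liquid culture, and over all tested genes it was -0.05 and -0.03. The background of lower calls was 4.44% of tested genes in solid culture (9.30% in either direction, 878 genes) and 11.1% in liquid culture (20.0% in either direction, 1885 genes). With the block the counts in either direction were 1897 and 2984. Since these values chose sC and mde1, nothing is read from the list's count or median. The 2 genes that were not chosen, met16 and met2, were both lower in solid culture (-2.83 and -0.87). In liquid culture they had opposite signs, but that of met2 turned without liquid DTT replicate 1. Neither gene was called by edgeR in either culture. The choice rested on edgeR's adjusted p under 0.05. The list gene nearest inside this threshold in both cultures was mde1, whose selecting values of 0.0407 in solid and 0.0119 in liquid culture are a description and no test. The nearest outside was met16 in both. met16 was lower by more than mde1 in solid culture but with an SE of 0.94 against 0.49 for mde1.

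**Figure D3:**
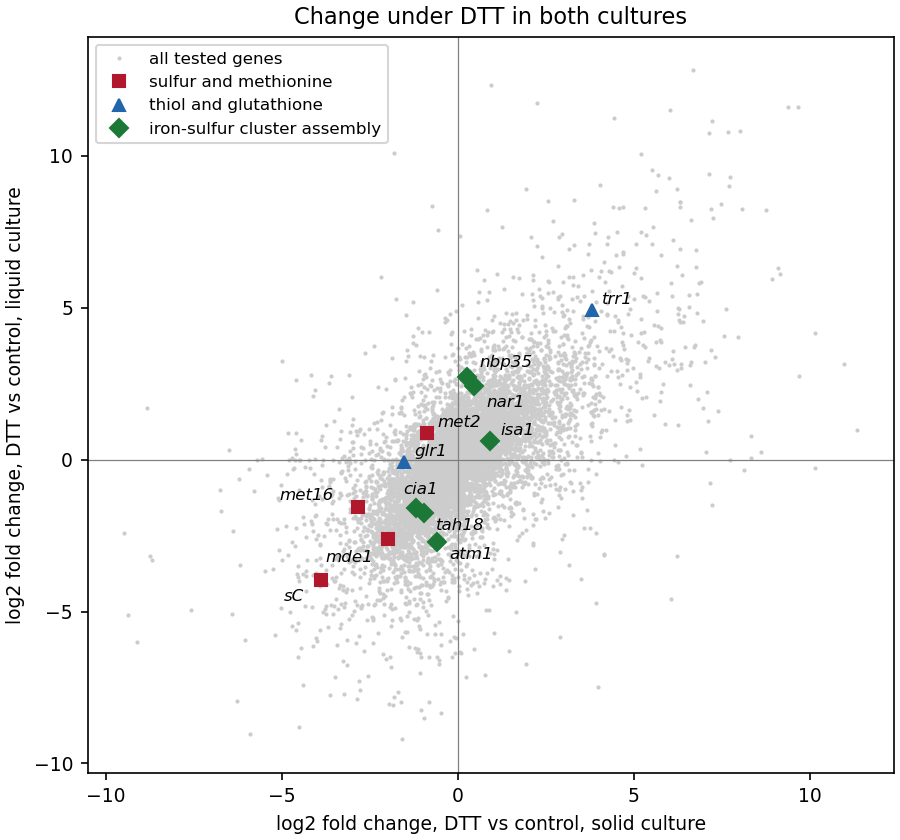
Log2 fold change under DTT in solid culture (x axis) against liquid culture (y axis) for all 9438 tested genes in grey, with the genes of 3 lists marked. sC and mde1 lie in the lower left, trr1 in the upper right, and the 6 iron-sulfur genes on both sides of 0.

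In thiol metabolism 1 gene, trr1, was called in each culture, as higher. Of all tested genes 4.86% were called higher under DTT in solid culture and 8.91% in liquid culture. Of a list of 32 symbols the reference names 2, trr1 (AO090009000289), thioredoxin reductase, and glr1 (AO090005001092), glutathione reductase, which keep the cell's own thiols reduced. trr1 had 3413 and 3002 CPM in solid DTT libraries against 199 and 258 CPM in solid control libraries, and 6848 and 3342 CPM in liquid DTT libraries against 177 and 159.6 CPM in liquid control libraries. It rose by 3.81 ± 0.73 in solid culture (adjusted p = 0.0199) and by 4.92 ± 0.77 in liquid culture (adjusted p = 0.00615, edgeR). Its solid call was lost without any one of the 4 solid libraries (adjusted p = 0.0682 to 0.149). glr1 had 52.1 and 65.3 CPM in solid DTT and 153 and 187 CPM in solid control libraries. Its log2 fold change of -1.53 ± 0.46 was not called in solid culture (adjusted p = 0.0682 in edgeR), but was with the block (adjusted p = 0.0358), in DESeq2 (adjusted p = 0.0320) and without liquid DTT replicate 1 or 2 (adjusted p = 0.0356 to 0.0378). In liquid culture glr1 stood at -0.09 ± 0.45 (adjusted p = 0.914, edgeR).

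Iron-sulfur clusters take their sulfur from cysteine, and 6 genes of a list of 18 symbols for their assembly were named. None was called under DTT in solid culture by edgeR (1 at an unadjusted p under 0.05, 0 by DESeq2), and 4 were in liquid culture, 2 higher and 2 lower. Of all tested genes 9.30% were called in solid culture and 20.0% in liquid culture. nbp35 (AO090012000208) and nar1 (AO090003001020), of the cytosolic assembly machinery, stood at 2.71 ± 0.75 (adjusted p = 0.0369) and 2.41 ± 0.45 (adjusted p = 0.0100, edgeR). atm1 (AO090003000411), the mitochondrial exporter, stood at -2.72 ± 0.45 (adjusted p = 0.00734), and tah18 (AO090701000226), a reductase of the cytosolic machinery, at -1.77 ± 0.45 (adjusted p = 0.0267, edgeR). nbp35 rested on a liquid DTT group of 352 and 53.2 CPM, against 29.3 and 32.4 CPM in liquid control libraries, and without liquid DTT replicate 1 its log2 fold change was 0.78. In all, 6 of the 8 fits without 1 library did not call it (adjusted p = 0.0523 to 0.260). nar1 was not called without either liquid control library (adjusted p = 0.0534 to 0.0646), nor tah18 without liquid control replicate 1 or liquid DTT replicate 1 (adjusted p = 0.108 to 0.149). atm1, called in all 8 such fits, had 21.9 and 30.7 CPM in liquid DTT libraries against 146 and 202 CPM in liquid control libraries. In solid culture the log2 fold changes of these 4 genes were -0.97 to 0.46, and a difference of the DTT effects in solid and liquid culture was called for none of the 6 (3 at an unadjusted p under 0.05, 0 by DESeq2). Between solid and liquid culture under DTT, edgeR called nar1 alone (-2.17 ± 0.44, adjusted p = 0.0382), and DESeq2 called 2 of the 6. That call of nar1 was lost in 7 of the 8 fits without 1 library. Of all tested genes edgeR called 2.95% in this comparison (278 genes), and DESeq2 called 1142 genes. The 2 genes of the list without values here were not called under DTT by edgeR. With the block 1 of them was lower in liquid culture (adjusted p = 0.0216). The list's median was -0.16 in solid and -0.50 in liquid culture.

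sC and met16 lie near each other: in the gene order of the reference on chromosome 6, AO090020000348, which has no symbol, is the only gene between them. That gene stood higher under DTT while sC and met16 stood lower. It had 760.3 and 378 CPM in solid DTT libraries against 49.0 and 38.6 CPM in solid control libraries, and 1431 and 331 CPM in liquid DTT libraries against 145 and 10.3 CPM in liquid control libraries. Its log2 fold changes of 3.70 ± 1.19 and 3.51 ± 1.18 were not called (adjusted p = 0.0838 in solid and 0.0646 in liquid culture, edgeR). They were called with the block (adjusted p = 0.0219 and 0.0123). DESeq2 gave adjusted p = 0.00190 and 0.00202. Without liquid control replicate 1 the value in liquid culture was 6.39 (adjusted p = 0.0295, edgeR), and without liquid DTT replicate 1 it was 2.09 (adjusted p = 0.267). In solid culture edgeR's adjusted p was 0.0339 to 0.0380 without either liquid control library. The gene on the other side of sC, AO090020000350, stood at -0.74 ± 0.38 in solid and -0.39 ± 0.38 in liquid culture. The remaining neighbours within 3 places ranged from -1.53 to 0.46 in solid culture and from -0.79 to 1.07 in liquid culture, none of them called by edgeR. The lowest, AO090020000345 in solid culture, had an adjusted p of 0.0664, and was called with the block (adjusted p = 0.0356), in DESeq2 (adjusted p = 0.0330) and in edgeR without either liquid DTT library (adjusted p = 0.0377 to 0.0397).

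mde1 lies on chromosome 1 next to clxA (AO090009000313), which encodes the calnexin chaperone of the endoplasmic reticulum and stood higher under DTT. clxA had 2239 and 2986 CPM in solid DTT against 443 and 493 CPM in solid control libraries, and 1117 and 3059 CPM in liquid DTT against 236 and 442 CPM in liquid control libraries. It rose by 2.62 ± 0.73 in liquid culture (adjusted p = 0.0375, edgeR). DESeq2 called clxA in both cultures (adjusted p = 0.000358 in solid and 8.32e-05 in liquid culture). In solid culture it stood at 2.48 ± 0.73, with an adjusted p of 0.0656 in edgeR, of 0.0188 with the block and of 0.0365 to 0.0418 without either liquid DTT library. Its liquid call was kept in 1 of the 8 fits without 1 library, and lost in the other 7 (adjusted p = 0.0544 to 0.195). The gene on the other side of mde1, AO090009000311, stood at 0.48 ± 0.41 in solid and -0.29 ± 0.41 in liquid culture. Of the other 4 genes within 3 places, AO090009000315 alone was called, at -1.93 ± 0.57 in liquid culture (adjusted p = 0.0437, edgeR), and 7 of the 8 fits without 1 library did not call it (adjusted p = 0.0549 to 0.276). AO090009000314 stood at -1.72 ± 0.54 there (adjusted p = 0.0524 in edgeR, 0.0203 with the block and 0.0225 in DESeq2). Strand is not mentioned in the labels, so reads from overlapping ends of neighbouring transcripts could not be told apart, and their part in these values was not tested.

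**Figure D4:**
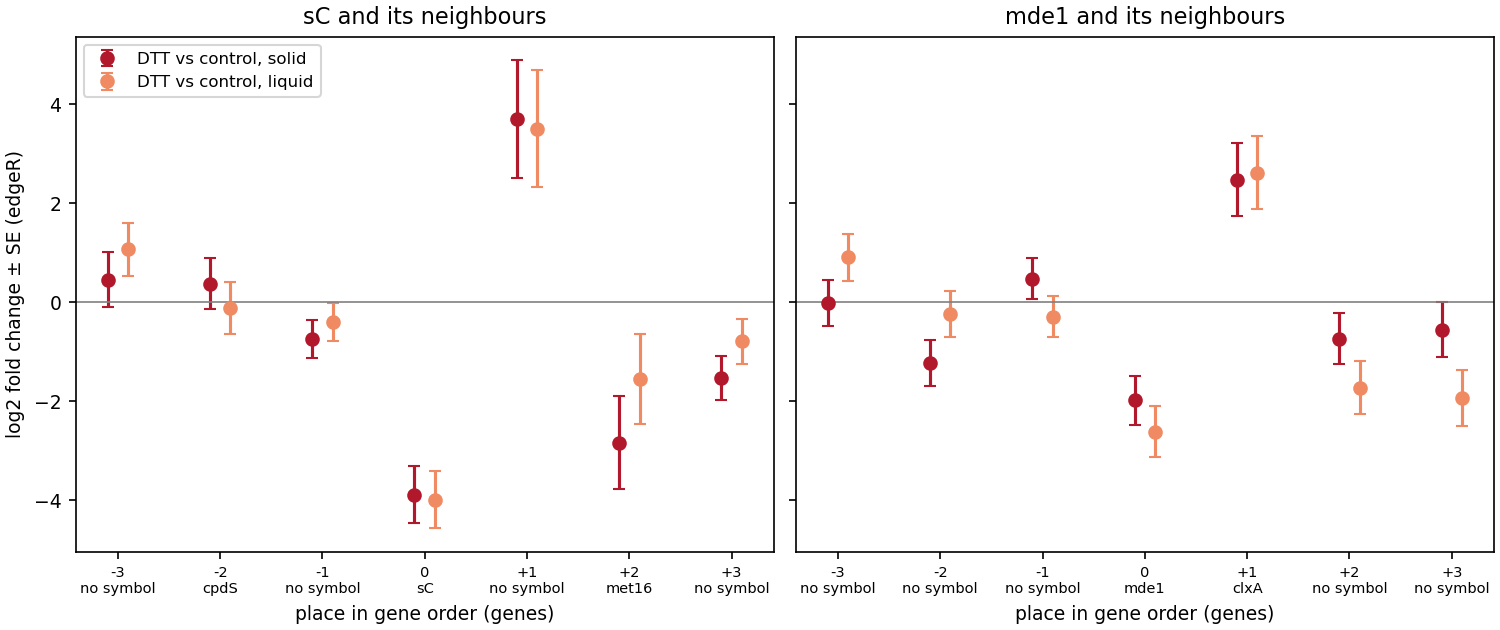
Log2 fold change ± SE under DTT of sC (left) and mde1 (right), each at place 0, and of the 3 genes on either side in the gene order of the reference, in solid and liquid culture. The gene next to sC stands at 3.70 and 3.51, met16 beyond it at -2.83 and -1.55, and clxA next to mde1 at 2.48 and 2.62.

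The profiles of sC and mde1 over the 8 libraries were alike in direction but not in size. Their log2 CPM, each centred on its own mean, differed by 1.18 (root mean square over 8 libraries), with a Pearson correlation of 0.90. Among 6259 genes averaging at least 10 CPM, mde1 ranked 328th by nearness to sC, and sC 2466th by nearness to mde1. The genes with a symbol nearest to sC were bna5-1 (AO090011000602), named after the yeast kynureninase, at 0.41, leu2A (AO090005001122) of leucine synthesis at 0.42, gldB (AO090003001045) at 0.57, pyrG (AO090011000868) of pyrimidine synthesis at 0.57 and the dipeptidyl peptidase gene dppIV (AO090023000602) at 0.61. Their correlations with sC were 0.96 to 0.99. The nearest of all was AO090701000367, which has no symbol, at 0.33. leu2A, for example, had 12.9 and 20.8 CPM in solid DTT against 346 and 423 CPM in solid control libraries, and 9.03 and 2.96 CPM in liquid DTT against 112 and 73.1 CPM in liquid control libraries. met16 ranked 162nd by nearness to sC, at 0.98, and met2 3626th, at 2.30.

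The genes with a symbol nearest to mde1 were others. The first 3 were cnaB (AO090701000094), the regulatory subunit of calcineurin, at 0.29, bud32 (AO090020000622), a kinase gene, at 0.31, and mvd1 (AO090023000862) of isoprenoid synthesis at 0.31. Their correlations with mde1 were each 0.97, and AO090206000050, which has no symbol, came nearest of all at 0.20. cnaB had 22.7 and 21.0 CPM in solid DTT against 90.8 and 95.2 CPM in solid control libraries, and 14.7 and 18.7 CPM in liquid DTT against 105 and 91.5 CPM in liquid control libraries. None of these 3 genes was among the 5 named genes nearest to sC. All these profiles share the same 8 libraries, and any gene lower in the 4 DTT libraries will resemble them, so the values describe likeness and are not tests.

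**Figure D5:**
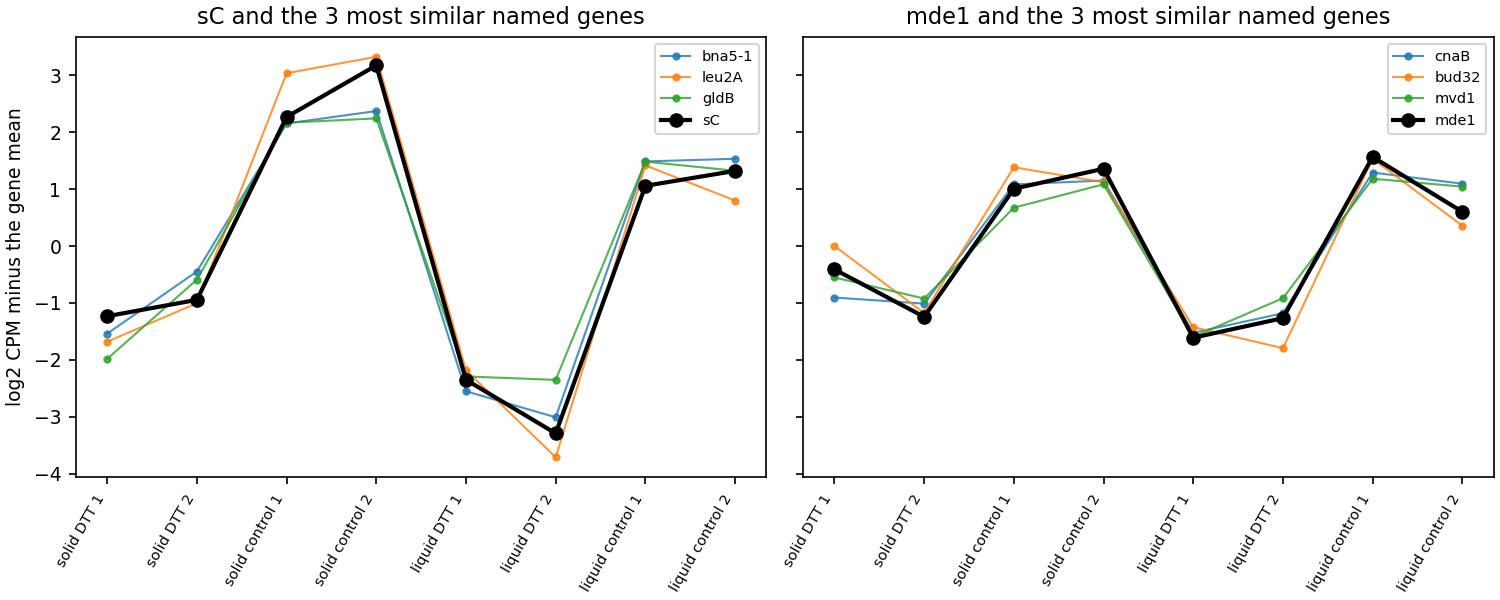
Log2 CPM minus each gene's mean in the 8 libraries for sC (left) and mde1 (right), in black, with the 3 most similar genes that have a symbol, in colour. Both members peak in control libraries, and sC spans a wider range than mde1, with its highest values in solid control libraries.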

How the data were processed

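The deposited files give, per the file headers, a whole-number count of mapped reads for each gene and the fraction of the gene covered, 1 file a library. Per the labels, polyadenylated RNA was selected on oligo-dT beads and random-primed cDNA was sequenced in paired reads of 44 bp. The sources used here name no aligner, build, annotation or rule for reads shared by several genes. All 11880 locus tags matched the RefSeq table of assembly ASM18445v3, used for symbols, gene types and gene order. Sequences were not used here. Coverage denominators gave a length of 1722 bp for sC and of 363 bp or a multiple for mde1, so levels per length were not computed.

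The test was the quasi-likelihood test of edgeR 4.0.16 (R 4.3.3), fitted once to the 8 libraries over 9438 genes kept by filterByExpr (minimum count 10), with TMM factors of 0.73 to 1.25. Residual degrees of freedom were 4. Adjustment was Benjamini-Hochberg within each comparison, and a call is an adjusted p under 0.05. Each SE is the log2 fold change over the root of F. Log2 CPM use a prior count of 2. Differences between replicates 1 and 2 correlated between conditions at 0.24 to 0.51, so libraries with the same replicate number varied together. Insert size and labelled molecule both coincide with that number and cannot be told apart. A block for replicate number was an alternative, beside RLE, DESeq2 1.42.0, no filter, protein-coding genes only, fits of 4 libraries and fits without each library. The edgeR fit was checked on simulated data. No condition's 2 libraries were copies of each other (chi-square over degrees of freedom 166.3 to 245.9).

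The genes, lists and tests were chosen with earlier results of these data known. Genes named are sC, mde1, list members found by symbol (all of the sulfur list, the 4 of each pathway list with the largest DTT changes, and spore formation genes that were called or near it, chosen after their values were seen), the 3 genes on each side in gene order and those with the smallest root-mean-square difference in centred log2 CPM, of which 1 is not reported here.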

Additional observations from a re-analysis of the deposited data

How the results depend on the processing

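The log2 fold changes of sC and mde1 under DTT kept their sign under every alternative run. The choice of both genes for lower counts favours this, and how many other genes did likewise was not counted. Leaving out 1 library moved sC between -4.28 and -3.34 in solid and between -4.53 and -3.51 in liquid culture, and mde1 between -2.47 and -1.53 and between -3.0 and -2.06. For solid against liquid culture sC passed the threshold in DESeq2 only (1.65 under DTT and 1.59 without) and ranged from 1.25 to 2.24 and from 1.08 to 1.98 without 1 library. mde1 without DTT turned to -0.01 with protein-coding genes only and to -0.02 with only the libraries compared, and ranged from -0.43 to 0.59 without 1 library (-0.16 without solid control replicate 2, -0.43 without liquid control replicate 2, -0.01 without either replicate 2 of the DTT groups). The difference of the DTT effects of sC turned to -0.28 without solid control replicate 1, -0.01 without solid DTT replicate 2 and -0.31 without liquid DTT replicate 2 (range to 0.64). In liquid culture under DTT met2 turned to -0.54 without liquid DTT replicate 1 (1.61 without replicate 2) and glr1 to 0.40 without liquid DTT replicate 2 (-0.71 without replicate 1). With protein-coding genes only, which removes the rRNA share from the total, mean levels of sC were 51 CPM in solid DTT and 244 in liquid control, and of mde1 18.4 in liquid DTT and 109 in solid control. The mde1 level in liquid DTT was 12.7 to 16.6 CPM without 1 library.

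Counts of called genes depended most on the alternative. For DTT in solid culture there were 1897 with the block, 1672 in DESeq2 and 6 to 1207 without 1 library. For DTT in liquid culture there were 2984 with the block, 902 with only the libraries compared and 614 to 1581 without 1 library. For solid against liquid culture under DTT there were 992 with the block, 1142 in DESeq2, 610 with no filter, 95 with only the libraries compared and 60 to 322 without 1 library. Without DTT there were 771, 890 and 569 under the first 3 of these and 67 to 437 without 1 library. For the difference of the DTT effects there were 23, 211 and 26, and 0 to 7. All genes called for DTT in solid culture and between the cultures were also called with the block, as were 1881 of 1885 for DTT in liquid culture, and the block changed no call of sC or mde1. With 1 library left out, the lone library of a condition is assumed to vary like the others.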

Other observations

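The liquid DTT libraries were far apart for several of the genes named here, and how many tested genes differ likewise was not counted. Replicates 1 and 2 gave 48.8 and 3.91 CPM for met16, 192 and 44.6 CPM for met2, 352 and 53.2 CPM for nbp35 and 1431 and 331 CPM for AO090020000348. All of these were higher in replicate 1, while clxA, next to mde1, went the other way, with 1117 and 3059 CPM. The same libraries gave 16.3 and 8.34 CPM for sC and 12.4 and 15.8 CPM for mde1. Another gene singled out after its values were seen was wetA (AO090009000260), a regulator of spore maturation, with 206 and 38.0 CPM in liquid DTT libraries against 33.7 and 12.4 CPM in liquid control libraries. Replicate 1 of liquid DTT had the lowest TMM factor (0.73) and the lowest median coverage of listed genes (68.0%) of the 8 libraries. Whether these values bear on each other was not tested.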
